A study of Ovis aries with 15 samples.

Results

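Macrophages and related myeloid cells of the kidney were followed through 8 genes that mark them: CSF1R, CD68, CD163, AIF1, MARCO, TYROBP, CD14 and SPI1. The genes were chosen by name, and a row of the expression table counted as a member where its gene identifier was one of these symbols. Of the 8 symbols, 7 were found among the 25592 genes of the table, and CD163 was not one of its identifiers. The libraries were labelled as kidney of sheep (Ovis aries), 5 libraries in each of 3 groups. The sheep were male Dorper × Small-tailed Han crossbreds aged 4 months, taken from groups of 6 animals kept 2 to a pen and fed for 21 days. Breed, diets and housing are as the study's methods give them. The CON group received the basal diet. The AFB1 group received the same diet with aflatoxin B1, a toxin made by moulds, at 500 µg per kg of dry matter. The AFB1_CUR group received that dose of AFB1 together with curcumin (CUR), a plant polyphenol, at 800 mg per kg of dry matter. No group received CUR without AFB1.

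Macrophages live in most organs, including the kidney, where they take up debris and foreign particles and sense bacterial products. Their number and survival depend on growth factors that act through a receptor tyrosine kinase, and their identity depends on lineage transcription factors. They carry scavenger receptors, receptors for bacterial lipids, and receptors that signal through small adaptor proteins with an activation motif called ITAM. In whole tissue a lower level of such a gene can come from fewer cells of the type or from less RNA per cell, and bulk RNA cannot tell these apart.

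The deposited table held between 50255295 and 68747047 counts per library. AFB1 replicate 1 did not look like kidney. It held 25681 FPKM (fragments per kilobase of transcript, scaled to the mapped fragments of the library) of the hepatocyte gene ALB, against at most 23.9 in the other 14 libraries, and 0.108 FPKM of the kidney tubule gene UMOD, against at least 126. It is therefore described apart, and the comparisons rest on 14 kidney libraries: 5 CON, 4 AFB1 and 5 AFB1_CUR. The summed FPKM of 8 proximal tubule markers was 1054 to 2880 in these 14 libraries and 70.9 in AFB1 replicate 1. AFB1 replicate 2 and AFB1_CUR replicate 2 also stood apart, as the kidney libraries highest in most members and in markers of several other immune cell types. The comparisons with a result that rests on them are also given without them. Both belong to groups fed AFB1 and were picked for their high levels. For most members, smaller differences from CON without them were therefore built into this choice. A call lost without them shows only that it rested on them.

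The members lie on 6 chromosomes. Chromosome numbers come from the RefSeq annotation of the assembly ARS-UI_Ramb_v3.0, in which all members have the same start and end as in the deposited table. CSF1R lies on chromosome 5 from 59152070 to 59183558 on the minus strand, and CD14 on the same chromosome and strand from 49427460 to 49428940. SPI1 lies on chromosome 15 from 76127137 to 76144007 on the minus strand. TYROBP lies on chromosome 14 from 45899251 to 45902119 on the minus strand. MARCO lies on chromosome 2 from 184278231 to 184315941 on the plus strand. These 5 genes overlap no other gene of the table. AIF1, on chromosome 20 from 26767044 to 26791334 on the minus strand, overlaps LST1 on the same strand and NCR3 on the other. CD68, on chromosome 11 from 27131634 to 27133684 on the plus strand, lies wholly within the annotated span of EIF4A1, a translation initiation factor, which runs from 27125101 to 27133684 on the same strand, and it also overlaps SOX15 on the minus strand. How the counting split reads between overlapping genes is not given in the sources used here, so the levels of AIF1 and CD68 are uncertain.

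CSF1R encodes the receptor for the macrophage growth factors CSF1 and IL34. In the CON group its level was 11.9, 10.4, 7.85, 4.56 and 2.72 FPKM in replicates 1 to 5. In the AFB1 group it was 27.6, 10.3, 10.4 and 6.09 FPKM in replicates 2 to 5. In the AFB1_CUR group it was 6.21, 30.1, 13.9, 10.9 and 13.7 FPKM in replicates 1 to 5. The replicate 2 libraries of both AFB1-fed groups were the highest, CON replicates 4 and 5 were the lowest, and the groups overlapped. The CON mean was 7.49 ± 3.87 FPKM (SD, n = 5). The AFB1 mean was 13.6 ± 9.55 (SD, n = 4), and that of AFB1_CUR was 15.0 ± 9.001 (SD, n = 5).

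SPI1 encodes PU.1, a transcription factor that myeloid cells and B cells need for their development. Its level was 4.98, 6.46, 4.82, 2.51 and 2.29 FPKM in the CON libraries. It was 12.9, 6.33, 4.21 and 2.52 FPKM in AFB1 replicates 2 to 5, and 2.99, 19.4, 4.29, 3.55 and 5.13 FPKM in the AFB1_CUR libraries. The means were 4.21 ± 1.77, 6.49 ± 4.54 and 7.06 ± 6.92 FPKM (± SD of 5, 4 and 5 libraries, in the order CON, AFB1 and AFB1_CUR, as for the next genes). Apart from the 2 high libraries, every AFB1 and AFB1_CUR value lay within the range of the CON group.

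TYROBP encodes DAP12, an ITAM adaptor that passes on signals from receptors of myeloid and natural killer cells. In CON the level was 16.05, 16.4, 13.2, 4.90 and 4.21 FPKM. In AFB1 replicates 2 to 5 it was 24.8, 11.7, 12.3 and 7.91 FPKM, and in AFB1_CUR it was 9.96, 30.2, 15.3, 8.62 and 16.7 FPKM. CON replicates 4 and 5 lay below every library of the other groups, while CON replicates 1 and 2 lay above 3 of the 4 AFB1 libraries. The means were 10.95 ± 5.98, 14.2 ± 7.37 and 16.2 ± 8.58 FPKM.

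AIF1 encodes IBA1, a calcium-binding protein of the macrophage cytoskeleton. The CON libraries held 7.03, 6.42, 5.26, 2.94 and 2.07 FPKM, AFB1 replicates 2 to 5 held 11.3, 6.63, 6.93 and 3.08 FPKM, and the AFB1_CUR libraries held 3.16, 13.8, 6.59, 4.42 and 5.96 FPKM. Without the 2 replicate 2 libraries, CON replicate 1 was the highest of all. The means were 4.75 ± 2.16, 6.99 ± 3.37 and 6.80 ± 4.16 FPKM.

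CD14 encodes the co-receptor that hands bacterial lipopolysaccharide to TLR4. Its level varied less than that of the other members, with 7.05, 15.4, 9.45, 10.03 and 8.88 FPKM in CON. In AFB1 replicates 2 to 5 the level was 19.9, 12.7, 10.5 and 11.9 FPKM. In AFB1_CUR it was 11.3, 22.5, 8.09, 12.97 and 11.2 FPKM. AFB1_CUR replicate 2 and AFB1 replicate 2 were again the highest, and CON replicate 2 was the next. The means of 10.2 ± 3.15, 13.7 ± 4.19 and 13.2 ± 5.49 FPKM differed by less than the larger SD of each pair. Over the 14 libraries the coefficient of variation was 35.6% for CD14, against 52.2% for TYROBP, 53.0% for AIF1, 66.4% for CSF1R, 80.1% for SPI1, 148% for CD68 and 244% for MARCO.

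CD68 encodes a glycoprotein of the lysosome membrane in macrophages. It was low in most libraries, with 0.640, 0.796, 1.10, 0.325 and 0.147 FPKM in CON. In AFB1 replicates 2 to 5 the level was 5.63, 1.01, 0.847 and 0.252 FPKM, and in AFB1_CUR it was 0.561, 9.10, 0.618, 0.760 and 2.24 FPKM. The means were 0.601 ± 0.376, 1.93 ± 2.48 and 2.66 ± 3.67 FPKM, with SDs above the means in both groups that received AFB1. The 14 libraries spanned a 62.0-fold range, from 13 reads in CON replicate 5 to 801 reads in AFB1_CUR replicate 2. EIF4A1, whose span holds CD68, had 8662 to 14194 reads in the same libraries, so the reads given to CD68 came to between 0.1501% and 5.64% of those given to EIF4A1.

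MARCO encodes a scavenger receptor that binds bacteria and particles, found on some macrophages of lung, spleen and liver. It was near the limit of detection in the kidney libraries. CON held 0.0726, 0.130, 0.662, 0 and 0.0795 FPKM. AFB1 replicates 2 to 5 held 5.22, 0.284, 0.452 and 0 FPKM, and AFB1_CUR held 0.404, 0, 0, 0.383 and 0.1099 FPKM. AFB1 replicate 2, with 465 reads, was the only kidney library above 1 FPKM, and AFB1_CUR replicate 2, highest in the other members, had 0 reads. A count of 0, seen in 4 of the 14 libraries, allows up to 3 reads, and these limits cover counting error only.

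CD163 encodes a scavenger receptor that clears haemoglobin bound to haptoglobin. The gene LOC105612575, on chromosome 3 from 207382523 to 207424004 on the plus strand, is described in the table by the name of the CD163 protein, scavenger receptor cysteine-rich type 1 protein M130. It is no member by the rule and was looked up after the table was seen. Its CON mean was 6.99 ± 3.999 FPKM (SD, n = 5). The AFB1 mean was 5.59 ± 2.02 (SD, n = 4), and that of AFB1_CUR was 8.05 ± 2.16 (SD, n = 5). Its level ran from 1.70 FPKM in CON replicate 1 to 12.1 in CON replicate 4, and the 2 libraries highest in most members held 7.62 and 9.24 FPKM, within the range of the others. Its Pearson r with the members is given as a description. Over the 14 libraries r was -0.226 with TYROBP, -0.150 with AIF1, -0.0421 with CSF1R and 0.0241 with MARCO. It was 0.0626 with SPI1, 0.2045 with CD68 and 0.407 with CD14. Over the 12 libraries without both replicate 2 libraries r ran from -0.528 (TYROBP) to 0.36 (CD14), with -0.334 for CSF1R.

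**Figure D1:**
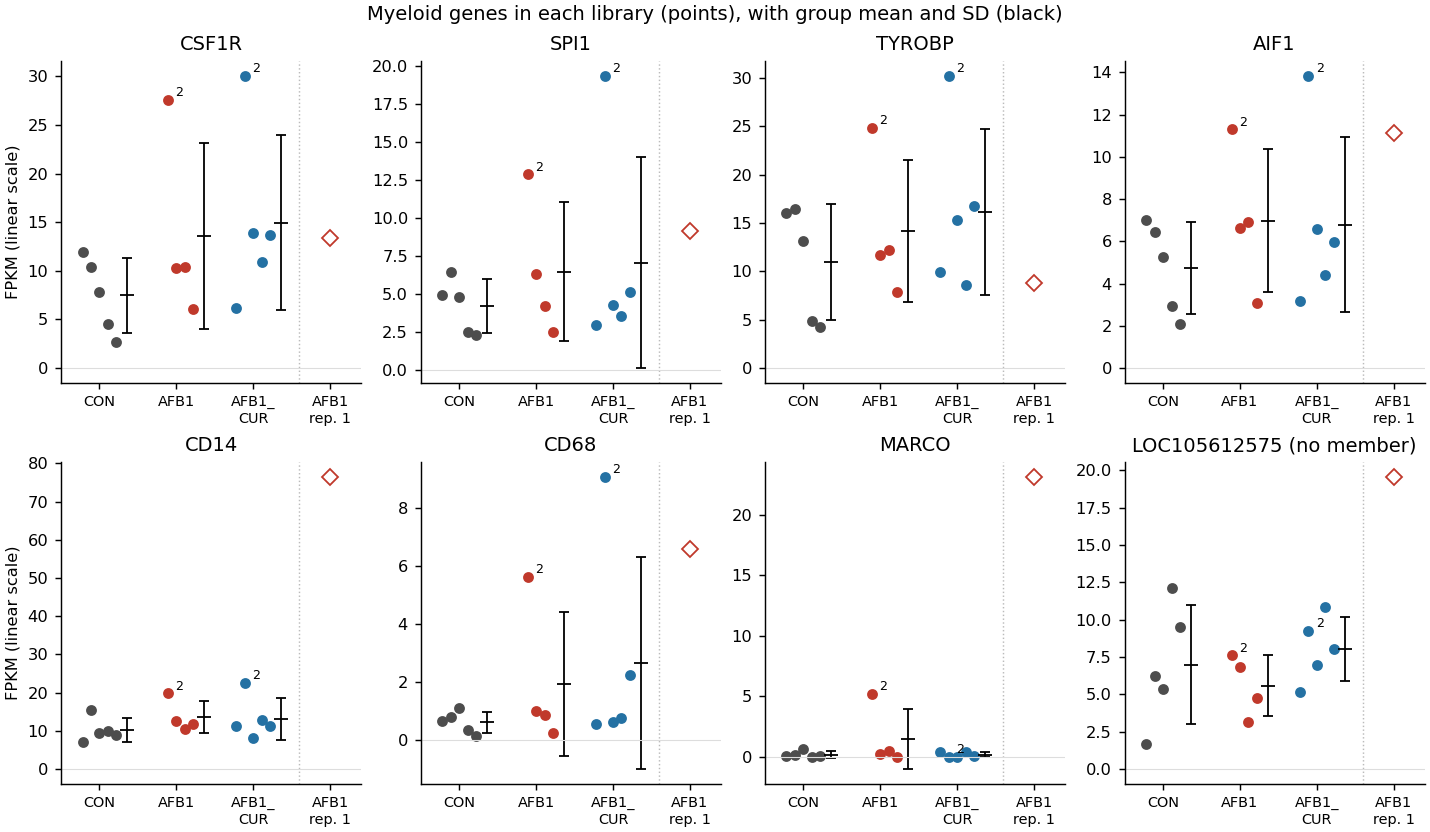
Each panel plots the FPKM of 1 gene (linear y axis, a scale of its own per panel) in every library by group: filled points are single libraries, the black mark and bar are the group mean and SD, "2" marks replicate 2 of AFB1 and AFB1_CUR, and the open diamond at the right is AFB1 replicate 1, left out of mean and SD. The 2 marked libraries lie above all other kidney libraries in CSF1R (27.6 and 30.1 FPKM), SPI1, TYROBP, AIF1, CD14 and CD68, and the diamond is far above all of them in CD14 (76.5 FPKM) and MARCO (23.1 FPKM).

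On the FPKM scale, which is per transcript length, the order of the mean CON levels was TYROBP (10.95 ± 5.98), CD14 (10.2 ± 3.15), CSF1R (7.49 ± 3.87), AIF1 (4.75 ± 2.16), SPI1 (4.21 ± 1.77), CD68 (0.601 ± 0.376) and MARCO (0.189 ± 0.269), each ± SD with n = 5. SPI1 and CD68, and likewise CD68 and MARCO, differed by more than either SD, and the other neighbours in this order by less than the larger of their SDs. TYROBP exceeded 82.1% of all genes of the table by its CON mean, CD68 45.05% and MARCO 34.9%. CSF1R, AIF1 and SPI1 lay between, at 76.5%, 70.0% and 68.3%.

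Most of the variation in the members lay among libraries of the same group. The group explained 24.7% of the variance of log2(FPKM + 1) for CSF1R, the most of any member, and 7.19% for SPI1, the least. The median over the 7 members was 15.7%, beside 11.7% over the 20070 genes tested. AFB1_CUR replicate 2 was the highest of the 14 libraries in 6 of 7 members, and AFB1 replicate 2 was first or second in 7 of 7. The 3 lowest libraries were CON replicate 4, CON replicate 5 and AFB1 replicate 5 in each of CSF1R, SPI1, TYROBP, AIF1 and CD68. CD14 differed, with CON replicate 1 and AFB1_CUR replicate 3 lowest. Relative to the median of the other 12 libraries, AFB1_CUR replicate 2 held 12.99 times as much CD68, 4.55 times as much SPI1, 2.91 times as much CSF1R and 2.07 times as much CD14. The same ratios in AFB1 replicate 2 were 8.04, 3.03, 2.67 and 1.83.

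Other immune cell markers stood out in the same 2 libraries. All 8 T cell markers in the table (among them CD3E and CD8A) were above each of the other 12 libraries in both. The same held for all 4 plasma cell markers, which include the antibody joining chain JCHAIN, and for 5 of 6 B cell markers in AFB1 replicate 2 and 6 of 6 in AFB1_CUR replicate 2. The summed FPKM of the plasma cell markers was 683 in AFB1 replicate 2 and 947 in AFB1_CUR replicate 2, and 7.11 to 98.5 in the other 12. For the B cell markers it was 50.0 and 169, against 2.01 to 10.7. For the T cell markers it was 108 and 140, against 15.0 to 52.2. By group, the summed B cell level ranged from 2.01 to 10.7 in CON, from 4.07 to 50.0 in AFB1 and from 5.15 to 169 in AFB1_CUR, and CD79B, PAX5 and TNFRSF17 were at 0 in some kidney libraries. Of the 4 natural killer cell markers, 1 in AFB1 replicate 2 and 2 in AFB1_CUR replicate 2 were above each of the other 12 libraries. Their sums, 49.4 and 58.0, lay within the 17.0 to 106 of the others. The endothelial sum was 342 and 340, within the 225 to 360 of the others. The proximal tubule sum was 1404 in AFB1 replicate 2, within the 1142 to 2880 of the others, and 1054 in AFB1_CUR replicate 2, below them. The 3 adipocyte markers summed to 63.2 FPKM in AFB1 replicate 2, against 0.182 to 5.12 in the 12 others. The part of these cells in the member results was not tested.

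**Figure D2:**
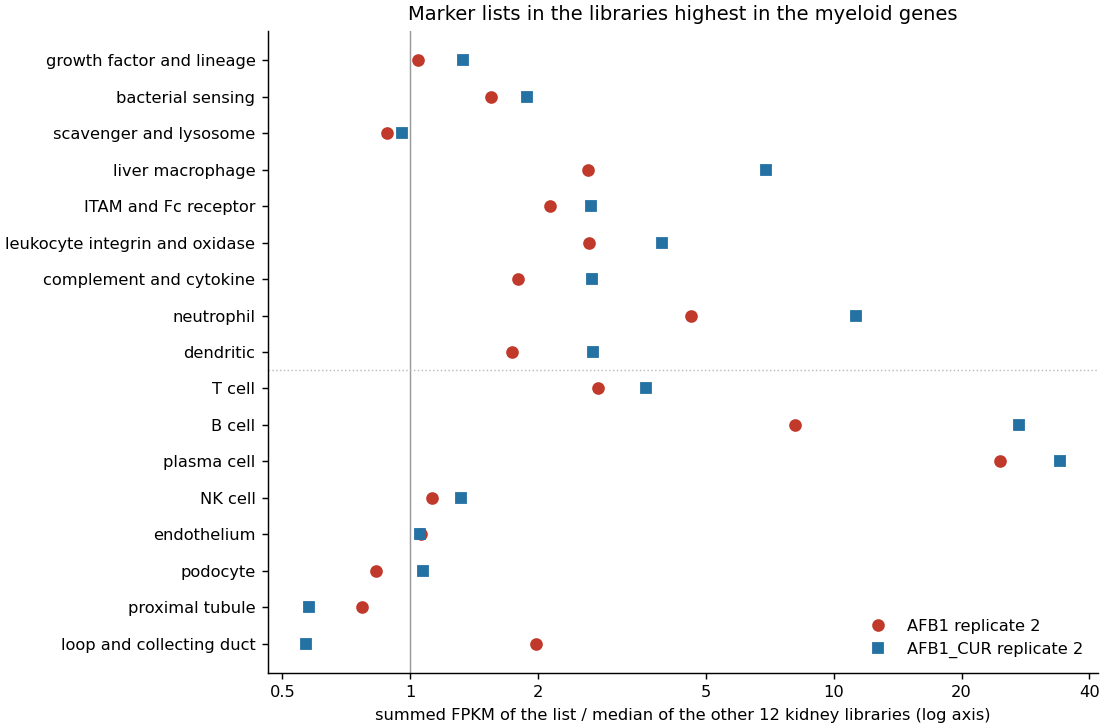
The x axis (log scale) gives the summed FPKM of each marker list in AFB1 replicate 2 (circles) and AFB1_CUR replicate 2 (squares) as a ratio to the median of the other 12 kidney libraries, with myeloid lists above the dotted line and other cell types below it. Plasma cell markers stand at 24.7 and 34.2 times the median and B cell markers at 8.09 and 27.4 times, whereas the endothelial lists stand at 1.06 and 1.05 times.

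The first comparison asks what AFB1 in the feed did to kidney gene expression. In the AFB1 group all 7 members had a fitted log2 fold change above 0 against CON. However, 0 of 7 passed the thresholds used here, an unadjusted p under 0.05 with a fold change above 1.5. For comparison, 2.65% of the 20070 genes tested passed these thresholds (edgeR's quasi-likelihood test). The smallest p among the members was 0.0837, for MARCO, and the adjusted p was 0.985 for each of them. The log2 fold changes were 2.83 ± 1.52 (SE) for MARCO, 1.59 ± 0.90 for CD68, 0.83 ± 0.46 for CSF1R, 0.59 ± 0.51 for SPI1, 0.53 ± 0.41 for AIF1, 0.44 ± 0.24 for CD14 and 0.36 ± 0.43 for TYROBP. Their median was 0.59, beside 0.03 over all genes tested. Without the 2 replicate 2 libraries the median of the members was 0.25, and the values of MARCO, CD68 and TYROBP were 0.34 ± 1.40, 0.23 ± 0.64 and 0.00 ± 0.41. Those of CSF1R, CD14, AIF1 and SPI1 were then 0.29, 0.26, 0.25 and 0.08. Of 18 hepatocyte markers tested, 13 were above 0 in this comparison and 0 were called, where 55.2% of all genes tested were above 0. The median of these markers was 0.61, and -0.008 without both replicate 2 libraries. Their part in the member results was not tested. No member separated the groups by its single libraries, whereas 1.6% of all genes tested had no overlap. For 5 of the members 3 or 4 of the 4 AFB1 libraries were above the CON median, for SPI1 2 and for TYROBP 1. Leaving out CON replicate 1 called CSF1R (1.07), leaving out CON replicate 2 called CD14 (0.59), leaving out CON replicate 3 called MARCO (4.19), and leaving out AFB1 replicate 5 called CD68 (1.95) and MARCO (3.24), all higher in AFB1.

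The second comparison asks what CUR did in sheep that also received AFB1. Of the members 4 had a log2 fold change above 0 in AFB1_CUR against AFB1 and 3 below, and 0 of 7 passed the thresholds, which 1.74% of all genes tested passed. MARCO had the largest difference, -2.91 ± 1.53 (SE, adjusted p = 0.99955 by edgeR's quasi-likelihood test). It was -0.43 without AFB1 replicate 2 and -0.10 ± 1.47 without both replicate 2 libraries. Hepatocyte markers moved the same way in this comparison, with 1 of 18 tested at a log2 fold change above 0, the others below 0, and 5 called lower in AFB1_CUR. Their summed FPKM was 257 to 458 in AFB1 replicates 2 to 5 and 97.0 to 289 in AFB1_CUR. In AFB1 replicate 2, 8 of 19 stood above all of the 12 libraries other than both replicate 2 libraries. The sum in AFB1 replicate 2 was 260 FPKM, within the 205 to 502 of those 12 libraries. The part of the hepatocyte markers in the result of MARCO was not tested. The other log2 fold changes were 0.36 ± 0.90 for CD68, 0.11 ± 0.43 for TYROBP, 0.07 ± 0.46 for CSF1R, 0.03 ± 0.51 for SPI1, -0.12 ± 0.41 for AIF1 and -0.14 ± 0.24 for CD14. All of these were smaller than their standard errors. The median of the members was 0.03, beside 0.00 over all genes tested. No member separated the groups by its single libraries, whereas 0.747% of all genes tested did. Without AFB1 replicate 5, MARCO passed the thresholds, lower in AFB1_CUR (-3.33).

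The third comparison sets AFB1 with CUR against the basal diet. CD68 passed the thresholds, with a log2 fold change of 1.95 ± 0.87 (SE, adjusted p = 0.870 by edgeR's quasi-likelihood test). Its unadjusted p was 0.0424, close to the threshold, and its level was 2.66 ± 3.67 FPKM (SD, n = 5) in AFB1_CUR against 0.601 ± 0.376 (SD, n = 5) in CON. It was 1 of 7 members, and 2.64% of all genes tested passed these thresholds. In 3 of 5 AFB1_CUR libraries CD68 was above the CON median, and in 2 of 5, replicates 2 and 5, above every CON library. Without AFB1_CUR replicate 2 the log2 fold change was 0.76, and the unadjusted p was 0.328. The call was also lost without CON replicate 1 (1.98), CON replicate 2 (2.03), CON replicate 4 (1.81), CON replicate 5 (1.71) or AFB1_CUR replicate 5 (1.98), with unadjusted p values from 0.0552 to 0.0864. It was lost as well with the replicate number as a block (1.44). By limma on log2(FPKM + 1) (0.79) or log2(FPKM + 0.1) (1.34) CD68 was not called either. EIF4A1, whose span holds CD68, had a log2 fold change of 0.14 ± 0.11 in the same comparison, and its Pearson r with CD68 over the 14 libraries was 0.861 and over the 12 without both replicate 2 libraries 0.395. CSF1R had a log2 fold change of 0.90 ± 0.44 and was above every CON library in 3 of 5 AFB1_CUR libraries. It passed the thresholds without CON replicate 1 (1.14), without AFB1_CUR replicate 1 (1.06) or without AFB1 replicate 2, a library of the group outside this comparison. CSF1R also passed by DESeq2 (0.88) and with the replicate number as a block (0.96). The log2 fold changes of SPI1, TYROBP, AIF1 and CD14 were 0.61 ± 0.49, 0.47 ± 0.41, 0.41 ± 0.39 and 0.29 ± 0.23, and that of MARCO was -0.09 ± 1.42. The median of the members was 0.47, beside 0.02 over all genes tested, and 0.20 without both replicate 2 libraries, when SPI1 was at -0.08 ± 0.30 and CSF1R at 0.57 ± 0.36. No member separated the groups by its single libraries, whereas 0.767% of all genes tested did. The AFB1 and AFB1_CUR groups share the CON libraries as their reference, so the first and the third comparisons are not independent.

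**Figure D3:**
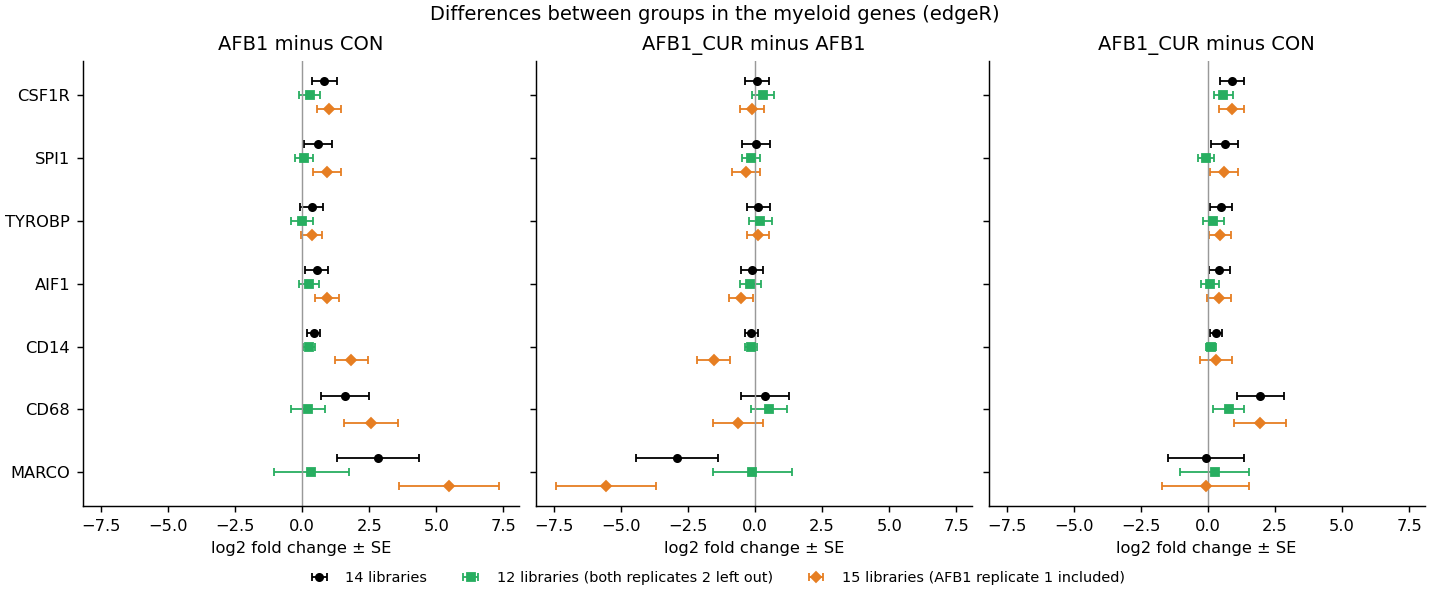
The x axis gives the log2 fold change ± SE of each member in the 3 comparisons by edgeR, from 14 kidney libraries (black circles), from 12 libraries without both replicate 2 libraries (green squares) and from all 15 libraries (orange diamonds). Apart from MARCO in the comparison of AFB1_CUR with CON, the differences from CON are nearer to 0 with 12 libraries, as for CD68 in the third comparison (1.95 against 0.76). The libraries left out were picked as high in most members, so for these members that shift was built into the choice. MARCO moves most with AFB1 replicate 1 included (2.83 against 5.47 in the first comparison).

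No gene of the table passed 0.05 by edgeR once p was adjusted over all genes tested (0 in each comparison), while 977, 549 and 1057 genes had an unadjusted p below 0.05. DESeq2 called 21, 6 and 2 genes after adjustment, and the smallest adjusted p of a member was 0.654, for CD68 in the third comparison.

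The wider myeloid lists held 119 genes in 9 groups around the members, of which 103 were tested. Compared with CON, 8 of the 103 passed the thresholds as higher in AFB1 and 0 as lower, where 1.25% of all genes tested were called higher. In AFB1_CUR 15 of the 103 were called higher than in CON and 0 lower, where 1.73% of all genes tested were called higher. Between AFB1_CUR and AFB1 the count was 1 higher and 0 lower, where 0.892% of all genes tested were called higher. The median log2 fold change of the 103 genes was 0.55 for AFB1 against CON, 0.06 for AFB1_CUR against AFB1 and 0.51 for AFB1_CUR against CON, beside 0.03, 0.00 and 0.02 over all genes tested. Without both replicate 2 libraries these medians were 0.17, 0.03 and 0.12, and the calls were 3 higher (CX3CR1, HMOX1 and LGMN), then 1 higher (FCGR2B) with 2 lower (LGMN and SIGLEC1), and 5 higher (CLEC9A, CXCR2, MSR1, TLR7 and VSIG4), of 102 genes of the lists tested in that fit. Of all 19775 genes tested in it, 0.966% were called higher in the first comparison, 1.54% higher and 0.946% lower in the second, and 0.743% higher in the third. The called genes failed the adjustment over all genes, with an adjusted p of 0.985 in the first comparison, 0.99955 in the second and 0.870 in the third. Leaving out 1 library moved the first count of 8 by more than 1.5 times in 7 cases: to 2 without CON replicate 5, 3 without AFB1 replicate 2, 4 without CON replicate 4, 5 without CON replicate 1 or AFB1 replicate 3, 13 without CON replicate 2 and 17 without AFB1 replicate 5. The third count of 15 moved to 3 without AFB1_CUR replicate 2 and to 9 without CON replicate 4. The single call of the second comparison became 2 without AFB1 replicate 3 or AFB1_CUR replicate 1, 3 without AFB1 replicate 5 or AFB1_CUR replicate 4, 4 without AFB1_CUR replicate 2 and 7 without AFB1 replicate 2.

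Around CSF1R and SPI1, the growth factor and lineage list had 0 of 13 tested genes called in each comparison. CSF1, one ligand of CSF1R, had mean levels of 5.68 ± 1.78, 6.61 ± 2.42 and 7.40 ± 3.62 FPKM in the CON, AFB1 and AFB1_CUR groups (± SD of 5, 4 and 5 libraries, as for the genes below). IL34, the other ligand, had 0.575 ± 0.170, 0.663 ± 0.418 and 0.973 ± 1.07 FPKM in the same groups. The means of the lineage factor CEBPA differed by less than their SDs, with 9.48 ± 1.79, 8.84 ± 1.75 and 9.99 ± 2.14 FPKM. IRF8, which acts with PU.1 in monocyte development, had 7.37 ± 3.76, 12.3 ± 9.06 and 14.6 ± 14.4 FPKM, with a log2 fold change of 0.86 ± 0.52 for AFB1_CUR against CON. AFB1_CUR replicate 2 held 40.2 FPKM of it, and without both replicate 2 libraries the log2 fold change was 0.15 ± 0.37.

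Around CD14, the bacterial sensing list had 1 of 10 genes called for AFB1 against CON and 2 of 10 for AFB1_CUR against CON. TLR7, a receptor for single-stranded RNA, was called higher than in CON in both AFB1 (log2 fold change 1.21 ± 0.47) and AFB1_CUR (1.19 ± 0.45), and without both replicate 2 libraries these were 0.74, no longer called, and 0.79, still called. CD180, a TLR4-like receptor that B cells also carry, was called in AFB1_CUR against CON (1.51 ± 0.69), and stood at 0.41, no longer called, without both replicate 2 libraries. TLR4 itself, the receptor that CD14 serves, had 14.5 ± 8.00, 13.1 ± 1.75 and 11.7 ± 2.26 FPKM in CON, AFB1 and AFB1_CUR. Its partner LY96 had 3.94 ± 2.01, 5.57 ± 2.28 and 4.75 ± 2.28 FPKM. LBP, which brings lipopolysaccharide to CD14, had 0.573 ± 0.630, 0.442 ± 0.738 and 0.556 ± 0.681 FPKM. None of these 3 partners passed the thresholds in any comparison.

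Around CD163, MARCO and CD68, the scavenger and lysosome list had 2 of 18 genes called in each comparison with CON. MSR1, a scavenger receptor of the same class as MARCO, had 0.226 ± 0.118 FPKM in CON, 0.588 ± 0.406 in AFB1 and 0.572 ± 0.302 in AFB1_CUR. Its log2 fold change was 1.34 ± 0.47 for AFB1 and 1.25 ± 0.45 for AFB1_CUR against CON, and without both replicate 2 libraries 0.85, no longer called, and 1.06, still called. STAB2, a receptor for hyaluronan, was called in AFB1 (1.13 ± 0.48), and the mannose receptor MRC1 in AFB1_CUR (0.85 ± 0.38). Without both replicate 2 libraries they stood at 0.63 and 0.55, and neither was called. HMOX1, which degrades the haem that CD163 helps to clear, had 75.7 ± 14.7, 112 ± 40.7 and 93.0 ± 22.2 FPKM in CON, AFB1 and AFB1_CUR. Its log2 fold change of 0.57 ± 0.25 for AFB1 against CON fell short of the fold threshold, whereas without both replicate 2 libraries it was 0.73 ± 0.24 and was called. The haptoglobin gene HP was not analysed here. In the short list of genes high in liver macrophages, VSIG4 was called in both comparisons with CON (1.10 ± 0.47 for AFB1 and 1.18 ± 0.45 for AFB1_CUR), and without both replicate 2 libraries only for AFB1_CUR, with 0.80 for AFB1. TIMD4, a receptor that binds dying cells, was called for AFB1_CUR against CON (1.54 ± 0.54) and stood at 0.56, no longer called, without both replicate 2 libraries.

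Around TYROBP, the ITAM and Fc receptor list had 20 of 20 tested genes with a log2 fold change above 0 in both comparisons with CON, with medians of 0.52 for AFB1 and 0.59 for AFB1_CUR, where 55.2% and 52.6% of all genes tested were above 0. Of the 20 genes, 1 passed the thresholds in AFB1, HCST (0.96 ± 0.44), which encodes the adaptor DAP10. In AFB1_CUR 2 passed, the inhibitory Fc receptor FCGR2B (1.31 ± 0.53) and the kinase BTK (1.54 ± 0.71). Without both replicate 2 libraries 15 and 16 of the 20 were above 0, the medians were 0.16 and 0.23, and none of these 3 genes was called in those comparisons. SYK, the kinase that ITAM adaptors recruit, had 1.51 ± 0.737, 3.17 ± 2.98 and 4.71 ± 7.02 FPKM in the 3 groups. FCER1G, another ITAM adaptor, had 11.7 ± 3.74, 15.1 ± 6.71 and 14.7 ± 7.56 FPKM.

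Among the other lists, the leukocyte integrin and oxidase list had 0 of 13 genes called in AFB1 and 1 in AFB1_CUR against CON, ITGAM (1.85 ± 0.69), an integrin of myeloid cells. Its level in AFB1_CUR replicate 2 was 8.42 FPKM, and without both replicate 2 libraries its log2 fold change was 0.66 and it was not called. The complement and cytokine list had 1 of 12 called in AFB1, the chemokine receptor CX3CR1 (0.79 ± 0.31), which kept its call without both replicate 2 libraries (0.80). The same list had 3 of 12 in AFB1_CUR, among them IL10 (1.73 ± 0.75) and C5AR1 (1.12 ± 0.50), and 0 of the 12 without both replicate 2 libraries, when IL10 stood at 0.20 and C5AR1 at 0.60. IL10 was at 2.31 FPKM in AFB1_CUR replicate 2 and at 0.0595 to 0.263 in the other AFB1_CUR libraries. Of 7 tested neutrophil genes, CXCR2 was called in AFB1 (0.91 ± 0.41) and in AFB1_CUR (1.16 ± 0.39), and without both replicate 2 libraries these were 0.60, not called, and 0.93, still called. MMP9, a secreted protease, was called in AFB1_CUR against both AFB1 (3.19 ± 1.16) and CON (2.72 ± 1.04). MMP9 stood at 14.5 FPKM in AFB1_CUR replicate 2 and at 0.162 to 0.513 in the other 13 libraries, and without both replicate 2 libraries its log2 fold change was 0.12 against AFB1 and -0.41 against CON. DESeq2 gave no p for MMP9, nor for BTK, ITGAM and TIMD4, so these calls of edgeR could not be compared with it. Of 7 dendritic cell genes, CLEC9A was called in AFB1 (0.77 ± 0.35) and in AFB1_CUR (0.998 ± 0.34), with 0.68, not called, and 0.71, still called, without both replicate 2 libraries. Lists of other immune cells also had calls. Of the 4 plasma cell markers 3 were called higher in AFB1 and 1 in AFB1_CUR than in CON, and 2 of 6 B cell markers and 1 of 8 T cell markers were called higher in AFB1_CUR than in CON. Without both replicate 2 libraries none of these 3 lists had a gene called higher in those comparisons, and 1 of 6 B cell markers was called lower in AFB1 than in CON. Their part in the results of the myeloid lists was not tested.

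Most of the members, MARCO and CD14 apart, varied together from library to library. Of the 21 pairs of members, 13 had correlated levels over the 14 libraries (Pearson r of log2(FPKM + 1), two-sided permutation test with 100000 resamples, Benjamini-Hochberg adjusted p under 0.05 over the 21 pairs), and by Spearman's rho 10. All 6 pairs among CSF1R, AIF1, TYROBP and SPI1 had r between 0.889 and 0.956 and rho between 0.793 and 0.916. CSF1R and AIF1 were the closest pair by Pearson's r (r = 0.956, permutation p = 1e-05, the smallest that the resamples can give, adjusted p = 4.2e-05). Their rho was 0.8286 (permutation p = 0.00038, adjusted p = 0.0015), and by rho TYROBP and SPI1 were the closest pair (0.9165). Without both replicate 2 libraries these 6 pairs kept r between 0.779 and 0.912, with the highest adjusted p, 0.00787 by permutation, for CSF1R and SPI1. With the group means removed they had r between 0.886 and 0.974. When the 2 libraries farthest from the median of the first gene were left out of each pair, CSF1R and AIF1 kept r = 0.914 and CSF1R and SPI1 had the lowest value of the 6, 0.863.

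CD68 followed this group, with r from 0.816 (TYROBP) to 0.937 (SPI1) over 14 libraries and from 0.668 (AIF1) to 0.726 (SPI1) over 12. CD14 did not keep its relation. Its r with SPI1 was 0.750 (permutation p = 0.00306, adjusted p = 0.00535) and with CD68 0.778 over 14 libraries, and 0.219 and 0.217 over the 12 without both replicate 2 libraries, which are also the 2 farthest from the median of CD68. With AIF1 it went from 0.562 to -0.0017. The relation of CD14 to the other members therefore rested on those 2 libraries, and its rho did not pass the adjusted threshold in any pair. None of the 6 pairs with MARCO passed the threshold, with r between 0.358 and 0.459. This depended on single libraries. Without AFB1_CUR replicate 2, 4 of the 6 passed, with r from 0.519 to 0.843. Without AFB1 replicate 2, 0 passed, with r from -0.100 to -0.0113. With all 15 libraries 2 passed. What the points of these correlations share is the library, its depth and its mix of cell types.

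**Figure D4:**
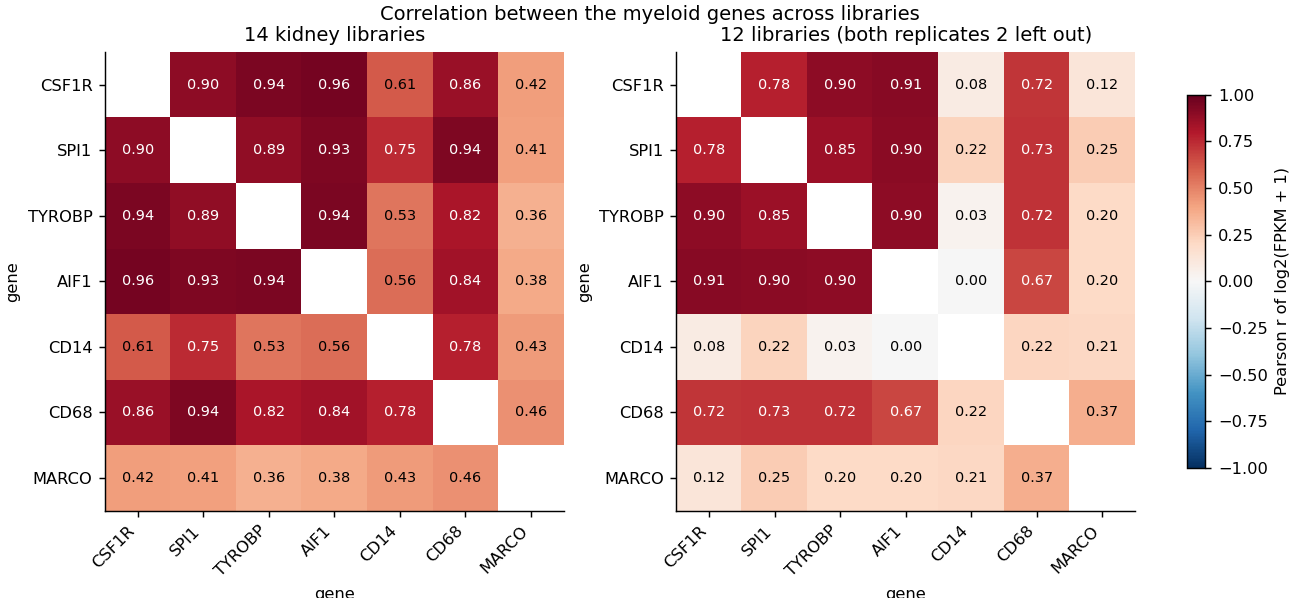
Each cell gives Pearson's r of log2(FPKM + 1) between the genes on the 2 axes, over 14 kidney libraries (left) and over 12 without both replicate 2 libraries (right), coloured from -1 (blue) to 1 (red). CSF1R, SPI1, TYROBP and AIF1 keep r of 0.779 to 0.912 on the right, whereas CD14 has at most 0.219 with any other member there.

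The genes whose levels followed each member most closely over the 14 libraries are given as a description, by Pearson's r of log2(FPKM + 1). Nearest to SPI1 were HCLS1 (0.987), a signalling protein of blood cells, the cytokine receptor subunit CSF2RB (0.985), NUP210 (0.985) and the leukocyte tetraspanin CD53 (0.984), with HCLS1 at 0.952 over the 12 libraries without both replicate 2 libraries. Nearest to CSF1R was the blood cell protein ARHGAP9 (0.982), followed by the GTPase gene LOC105615175 (0.966), the prostaglandin F synthase gene PGFS (0.962), the myeloid receptor CD300LF (0.9595) and ARHGAP30 (0.958). TYROBP was followed by GLIPR2 (0.962), the T cell receptor beta chain gene LOC105613374 (0.957), CD300LF (0.952), ARHGAP9 (0.945) and the lymphocyte adaptor SLA2 (0.944). AIF1 was followed by JPT1 (0.975), PLEKHO2 (0.974), RGS19 (0.973), SH3BGRL3 (0.972) and CD74 (0.972), the chaperone of MHC class II. Nearest to CD68 were CLSPN (0.978) and TTK (0.978), which act in DNA replication and mitosis, LOC132657409 (0.976), described in the table as a hypothetical protein, GPR18 (0.975), a receptor of lymphocytes, and KPNA2 (0.973), which acts in nuclear import. Their r with CD68 was 0.925, 0.860, 0.853, 0.874 and 0.866 over the 12 libraries, in the same order. CD14 was nearest to the RNA helicase DHX8 (0.917), the uncharacterised gene LOC101123403 (0.910) and the oxidoreductase ERO1A (0.903), which stood at 0.823, 0.749 and 0.728 over the 12 libraries. MARCO was nearest to RANBP3L (0.954), LOC101119509 (0.934), described in the table as a serpin, and COL10A1 (0.932), at 0.533, 0.488 and 0.0602 without both replicate 2 libraries.

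AFB1 replicate 1, the library with the profile of liver, had its own pattern of myeloid genes. MARCO stood at 23.1 FPKM (2152 reads), above all 14 kidney libraries, the highest of which held 5.22. CD14 stood at 76.5 FPKM, 6.79 times the median of the 14 libraries, and LOC105612575 at 19.6 FPKM, also above all of them. Hepatocytes as well as macrophages make CD14, and the hepatocyte sum was 60127 FPKM here, against 97.0 to 502 in the kidney libraries. The part of either cell type in this CD14 level was not tested. CD68 (6.61 FPKM) was exceeded by 1 kidney library, AIF1 (11.1) and SPI1 (9.13) by 2 each, and CSF1R (13.4) by 4. TYROBP, at 8.79 FPKM, was exceeded by 10 of the 14. Of the genes high in liver macrophages, CLEC4F stood at 12.4 FPKM, above all kidney libraries, and TIMD4 at 6.37, exceeded by 1. VSIG4, at 0.149 FPKM, was exceeded by 10. When this library was put into the AFB1 group, 4 of 7 members were called higher in AFB1 than in CON, where 4.82% of the 20135 genes tested in that fit were called higher. They were MARCO (log2 fold change 5.47 ± 1.87, SE), CD68 (2.57 ± 0.998), CD14 (1.82 ± 0.62) and CSF1R (0.99 ± 0.45). In that fit MARCO (-5.56 ± 1.88) and CD14 (-1.54 ± 0.61) were called lower in AFB1_CUR than in AFB1, as were 4.26% of the genes tested, and CD68 lost its call between AFB1_CUR and CON (1.93 ± 0.98).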

How the data were processed

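The members and gene lists were chosen with earlier results of these data known. The table deposited by the authors held read counts and FPKM per gene for 15 libraries labelled kidney, 5 per group. RNA was selected with oligo-dT, made into strand-marked libraries and sequenced in pairs. The submitters' processing notes name cutadapt 1.9, HISAT2 2.2.1, StringTie 2.1.6, DESeq2 and edgeR. Sources used here name no counting tool, strand setting or genome build. Groups were taken from the sample titles. The labels do not say that each library came from a separate sheep, so p-values measure the spread between these libraries.

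Counts as deposited were fitted with edgeR 4.0.16 (quasi-likelihood, TMM, R 4.3.3) over 3 groups and 14 libraries, for genes with at least 10 counts in at least 4 libraries. A gene was called where the unadjusted p was below 0.05 and the fold change exceeded 1.5. The study's own screening used these cut-offs, and its methods do not say whether its p was adjusted. Levels are FPKM by the authors. Correlations used log2(FPKM + 1) and permutation tests (scipy 1.17.1). DESeq2 1.42.0, limma 3.58.1 on log2(FPKM + 1) or log2(FPKM + 0.1), other filters, a replicate block and left-out libraries were alternatives. Leaving out both replicate 2 libraries was chosen after seeing the data, for their high levels, and no CON library was left out with them. Scripts were tested on simulated data first. Wider-list genes were named where called in a comparison, apart from an item not reported here, and partners by their known tie to a member.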

Additional observations from a re-analysis of the deposited data

Results flagged for a closer look

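Single libraries stood far from the others of their group in 9 of the 32 sets of 4 or 5 libraries tested, by the gap to the nearest library over the range of the group (Dixon's test). Chance flags about 1 in 20 such sets, and the genes share libraries, so the flags are not independent. AFB1 replicate 2 stood apart in CD68 (5.63 FPKM of 4 libraries), in MARCO (5.22 FPKM of 4 libraries) and, with AFB1 replicate 1 added to its group, in TYROBP (24.8 FPKM). AFB1_CUR replicate 2 stood apart in CD68 (9.10 FPKM) and SPI1 (19.4 FPKM). CON replicate 3 stood apart in MARCO, at 0.662 FPKM.

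With AFB1 replicate 1 put into the AFB1 group, it stood apart in MARCO (23.1 FPKM), CD14 (76.5 FPKM) and LOC105612575 (19.6 FPKM). This library is outside the comparisons, and it also held more CSF1R (13.4 FPKM), CD68 (6.61 FPKM), AIF1 (11.1 FPKM) and SPI1 (9.13 FPKM) than any CON library. It had 25681 FPKM of ALB, and the part of its liver-like profile in these values was not tested.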

How the results depend on the processing

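With all 15 libraries the members called were 4, 2 and 0 for AFB1 against CON, AFB1_CUR against AFB1 and AFB1_CUR against CON, in place of 0, 0 and 1. In the third comparison DESeq2 called 2 (CD68 and CSF1R), and limma with either pseudocount, and the fit without both replicate 2 libraries, called 0. Leaving out 1 library gave 0 to 2, 0 to 1 and 0 to 2 members.

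The 8 calls of the wider lists for AFB1 against CON became 3 with the FPKM filter, 1 and 3 by limma with a pseudocount of 1 and 0.1, 20 with all 15 libraries, 3 without both replicate 2 libraries, 5 with only the 2 groups compared, and 2 to 17 without 1 library. The 1 call for AFB1_CUR against AFB1 (MMP9) became 2 by DESeq2 (FCGR2B higher and LGMN lower, with no p for MMP9), 2 with no filter, 0 with the FPKM filter, 8 with all 15 libraries, 3 without both replicate 2 libraries, 2 with only the 2 groups and 1 to 7 without 1 library. The 15 calls for AFB1_CUR against CON became 4 with the FPKM filter, 3 and 9 by limma, 9 with all 15 libraries, 5 without both replicate 2 libraries and 3 to 19 without 1 library. Apart from left-out libraries, filters and all 15 libraries, the cause of these shifts was not tested.

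The 13 correlated pairs of members numbered 10 by Spearman's rho and without both replicate 2 libraries, and 12 to 16 without 1 library.

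Replicate numbers did not pair the libraries: the 13 same-number pairs correlated from -0.246 to 0.574, with the 3 replicate 2 pairs highest (0.356, 0.372 and 0.574), and 4 of 14 libraries correlated best with their own number. With the replicate block, the wider lists had 16 and 26 calls for AFB1 and AFB1_CUR against CON, CSF1R was called in place of CD68 in the third comparison, and MARCO there turned to 0.39.

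Some directions reversed. With all 15 libraries LOC105612575 went to 0.61 for AFB1 against CON, and for AFB1_CUR against AFB1 CSF1R went to -0.11, CD68 to -0.64, SPI1 to -0.33 and LOC105612575 to -0.50. SPI1 in that comparison was -0.0073 and -0.0112 by limma and -0.16 without both replicate 2 libraries. Without those libraries, for AFB1_CUR against CON, MARCO was 0.24, SPI1 -0.0835 and MMP9 -0.41. Without 1 library, AFB1_CUR against AFB1 ranged from -0.26 to 0.60 for CSF1R, -0.84 to 1.71 for CD68, -0.46 to 0.15 for AIF1, -0.15 to 0.45 for TYROBP, -0.34 to 0.0234 for CD14 and -0.67 to 0.53 for SPI1. Against CON, AFB1_CUR ranged from -0.64 to 1.28 for MARCO, -0.0833 to 0.78 for SPI1, -0.13 to 0.44 for LOC105612575 and -0.41 to 3.02 for MMP9. In all, 349 of the members' alternative values kept direction and side of the threshold, 27 reversed, 16 gained and 11 lost a call.

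All genes called numbered 532, 350 and 530. They were 109, 87 and 82 by limma with a pseudocount of 1, 238, 133 and 235 with the FPKM filter, 867, 707 and 928 with no filter, and 1261, 1069 and 334 with all 15 libraries. Without both replicate 2 libraries the third count was 329, and without 1 library the counts ran from 471 to 839, 340 to 656 and 301 to 704. Low counts of MARCO and CD68 limit their fold changes.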
